A study of Apis cerana with 76 samples.

Results

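The miR-927 family of the Asian honey bee, Apis cerana, was taken as every entry named miR-927a or miR-927b, on either strand, in the 2 miRNA count sheets of the series. The rule found 3 of 216 names. The family was chosen by its measured levels and strand balance over all columns of both sheets, so those values are given as a description. miR-927a-3p, miR-927a-5p and miR-927b-5p were all among the 146 entries of the stage sheet, and the last 2 were among the 171 entries of the organ sheet, where miR-927a-3p was not analysed. The sheets profile wild-type bees by small RNA sequencing. The stage sheet covers 18 groups of 3 libraries, namely queen larvae (QL), queen pupae with white (QW), red (QR) and dark red eyes (QDR), adult queens (QA), adult drones (D), egg (E), larvae L1 to L5, pupae with white (W), red (R) and dark red eyes (DR), pupae with dark red eyes and body (DRB), and adult workers that were young nurses (YA) or old foragers (OA). The organ sheet covers 11 groups of 2 libraries, namely brain, ventriculus (the midgut) and rectum of drones and of workers, drone testis, queen ovary, worker ovary, drone mucus gland and worker venom gland. The larvae and pupae outside the queen groups (called plain here) have no caste in the labels, and no age in days is given. Each group is 1 column in which the authors pooled its libraries, so every level below is the authors' pooled value, rescaled, with a 95% counting interval that covers counting error only.

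A miRNA gene is transcribed as a hairpin whose stem is cut into a duplex of a 5p and a 3p strand. Usually 1 strand is kept in an Argonaute protein, and its seed, bases 2 to 8, is the main determinant of which messenger RNAs it represses, so a shift in strand balance changes the set of possible targets. miR-927 is an insect family. In Drosophila melanogaster miR-927 has been linked to Krüppel homolog 1, a transcription factor that relays the juvenile hormone signal which holds insects in the larval state.

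The mature sequences are shown because the 3 strands carry different seeds, so their levels cannot be added up as 1 activity. Capitals mark the seed, and each sequence is written 5′ to 3′ as the authors' list and sheets give it.
miR-927a-3p: cAAAGCGUuugaaaucugaaac
miR-927a-5p: uUUAGAAUuccuacgcuuuacc
miR-927b-5p: uUUUAGAAuuuguacgcucugu
Each is 22 bases long. No other entry of the sheets (0 for each member) and no other name in the authors' list of conserved miRNAs (0 for each) has the same 7-base seed. The 5p strands of miR-927a and miR-927b match at 6 of 22 positions when lined up at their first bases, and at 16 of 21 when miR-927b-5p is moved by 1 base. Their shared bases in that second alignment are in capitals here, where the seeds UUUAGAA (miR-927b-5p) and UUAGAAU (miR-927a-5p) overlap in all but 1 base each.
miR-927a-5p: UUUAGAAUUccUACGCUuUacc
miR-927b-5p: uUUUAGAAUUugUACGCUcUgu
The closest entry to either 5p strand was the other one, at an edit distance of 7 bases, and the closest to miR-927a-3p was miR-2788-3p, also at 7.

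The miRNA counts of a column ran from 72873 (QA) to 19772824 (DRB) in stages and from 184457 (worker rectum) to 8476499 (drone mucus gland) in organs. The egg, QL, QW, QR and QA columns had 296404, 748682, 647990, 690134 and 72873 counts against at least 3510800 in every other stage column, so family members rest on few counts there (3 to 225). A count of 3, taken as the detection floor, was worth 37.8 CPM (counts scaled to library size with trimmed means, TMM) in QA and 0.144 CPM in DRB. Of the miRNAs used to check the organ labels, miR-281-5p, a midgut miRNA, was highest in worker and drone ventriculus (8786 and 6698 CPM). miR-989-3p, an ovarian one, was highest in worker and queen ovary (20865 and 8695 CPM). miR-124-5p, from a nervous system miRNA, was highest in drone and worker brain (241 and 110 CPM), but it was named after its values were seen and is no check. Of the muscle miRNAs, miR-1-3p was highest in mucus gland and lowest in testis (427726 and 5471 CPM). miR-133-3p was highest in testis (11772 CPM), followed by drone and worker brain (7273 and 4372 CPM), so the muscle miRNAs did not mark the same organs. In whole bees and organs, fewer cells of a type and less RNA per cell cannot be told apart.

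miR-927a-3p was low in larvae, higher in pupae and adult workers, and highest in adult drones. Its level was 78.1 CPM in egg, then 26.7, 24.2, 23.1, 21.6 and 18.2 CPM in L1 to L5. The pupal columns W, R, DR and DRB had 72.3, 128, 285 and 251 CPM, and the YA and OA workers 243 and 148 CPM. Each pupal column lay above each larval one, and adult drones, at 391 CPM (95% counting interval 382 to 401), stood above every other stage column. Queens had 31.8 CPM in QL, 47.9 in QW, 65.5 in QR, 196 in QDR and 164 in QA (87.1 to 280 CPM on 13 counts).

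miR-927a-5p, the more abundant strand in most stages, peaked at the end of pupal life. It stood at 221 CPM in egg, at 154, 111, 90.4, 103 and 78.8 CPM in L1 to L5, and at 124, 219, 322 and 754 CPM in W, R, DR and DRB. YA workers had 450 CPM, OA workers 106 CPM and adult drones 197 CPM. The DRB level was the highest of the 18 columns, and its counting interval (743 to 766 CPM) overlapped that of QDR (716 to 748 CPM). The other queen columns had 311 CPM in QL, 234 in QW, 250 in QR and 239 in QA. All 3 values of QL, QW and QR lay above those of L5 larvae and W pupae. The interval of QR (214 to 291 CPM) overlapped that of R pupae (210 to 229 CPM), and that of egg (182 to 265 CPM) overlapped QW and QR.

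miR-927b-5p was highest in old workers and in adult drones. It had 21.5 CPM in egg, 17.5, 16.7, 18.4, 29.8 and 20.3 CPM in L1 to L5, and 54.8, 73.8, 75.3 and 102 CPM in W, R, DR and DRB. YA workers had 172 CPM, OA workers 295 CPM and adult drones 297 CPM, and the intervals of OA workers and drones overlapped with TMM. Scaled with DESeq2 size factors, OA workers stood above drones (388 against 310 CPM), as they did with library totals (573 against 302 CPM). Queens had 15.2, 21.0, 19.3 and 79.5 CPM in QL, QW, QR and QDR, and 37.8 CPM in QA on 3 counts (7.79 to 110 CPM). In the order of levels over stages, the intervals of neighbours overlapped in 12, 12 and 13 of 17 steps for miR-927a-3p, miR-927a-5p and miR-927b-5p. From lowest to highest column the 3 entries spanned 21.5-fold, 9.57-fold and 19.5-fold.

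**Figure D1:**
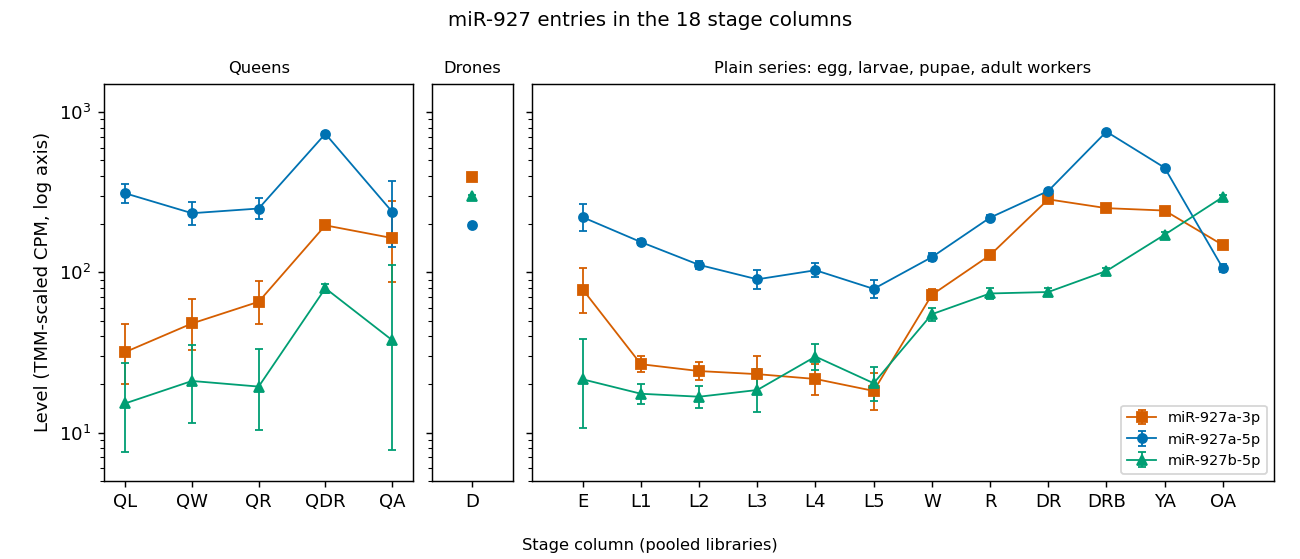
Levels of the 3 miR-927 entries (TMM-scaled CPM, log axis) in the stage columns of queens, drones and the plain series; bars are 95% counting intervals and lines join stages in order. miR-927a-3p and miR-927b-5p sit near 20 CPM in larvae and above 50 CPM in each plain pupal and adult worker column, while miR-927a-5p peaks at 754 CPM in DRB.

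The comparisons between classes of columns are descriptions with no p-value, because the levels over all columns were known when these entries were chosen and each group is 1 pooled column. An entry was counted when the sides were at least 2-fold apart in mean log2(CPM + 1), did not overlap, and averaged at least 50 CPM on the higher side. The same rule applied to all entries gives the background. A log2 difference is always the first-named side minus the second.

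Pupae (W to DRB) differed from larvae (L1 to L5) by 2.78 for miR-927a-3p (mean 184 against 22.8 CPM), by 1.84 for miR-927b-5p (76.4 against 20.5 CPM) and by 1.44 for miR-927a-5p (355 against 108 CPM). The first 2 met the rule. Of 84 entries at 50 CPM, 33.3% met it, 11.9% as higher and 21.4% as lower; this contrast helped to choose the members, so nothing is read from that. miR-927a-3p had the third largest difference of the 84, whose median was -0.33. miR-927a-5p missed the rule because W pupae (124 CPM) lay under L1 larvae (154 CPM). Without W it met the rule at 1.83, and without L1 at 1.58.

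Larvae stood below egg for both strands of miR-927a, at log2 differences of -1.75 for miR-927a-3p (22.8 against 78.1 CPM) and -1.07 for miR-927a-5p (108 against 221 CPM). Both met the rule. Of the 88 entries 58% met it, 31.8% as higher and 26.1% as lower. Without L5 larvae miR-927a-5p was at -0.97 and no longer met it. The median of the 88 entries was 0.49. miR-927b-5p, at -0.09, was under 50 CPM on both sides. Egg is 1 column of 296404 miRNA counts. With library totals in place of TMM the 3 differences were -2.90, -2.24 and -1.23.

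Adult workers exceeded pupae for miR-927b-5p, by 1.58 (233 against 76.4 CPM), with YA and OA both above the 4 pupal columns. Of 81 entries 38.3% met the rule, 12.3% as higher and 25.9% as lower. The strands of miR-927a overlapped between the classes, at 0.24 for miR-927a-3p and -0.38 for miR-927a-5p. For miR-927a-5p, YA and OA workers lay on opposite sides of the W, R and DR pupae with TMM. OA workers lay above W pupae with DESeq2 size factors (140 against 123 CPM) and library totals (206 against 157 CPM). Without YA workers miR-927a-5p was at -1.42 and met the rule with TMM. Without OA its difference was 0.65.

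Old OA foragers had less miR-927a-5p than young YA nurses, 106 against 450 CPM, a log2 difference of -2.07 (counting interval of the ratio -2.17 to -1.99). This met the rule, which for 1 column a side asks only for 2-fold; 54.9% of 82 entries met it, and 39% were lower. miR-927a-3p, at -0.71 (148 against 243 CPM), was at the median of all entries (-0.71), and with library totals its sign turned (0.18). miR-927b-5p went the other way, at 0.78 (295 against 172 CPM), short of 2-fold with TMM but past it with DESeq2 size factors (1.02) and library totals (1.67). OA workers held less miR-927a-5p and more miR-927b-5p under each of these scalings (for miR-927a-5p, -1.83 with DESeq2 and -1.18 with library totals).

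Adult drones had more miR-927a-3p than adult workers, 391 CPM against 243 (YA) and 148 CPM (OA), a log2 difference of 1.04 that met the rule with TMM. Of 80 entries 30% met it, 20% as higher and 10% as lower. The difference fell short of 2-fold with DESeq2 size factors (0.83), with library totals (0.56) and without OA workers (0.69). miR-927a-5p (197 CPM) lay between YA and OA workers with TMM. With library totals drones lay just below OA workers (200 against 206 CPM). Without OA, miR-927a-5p met the rule as lower in drones, at -1.18 with TMM. miR-927b-5p, at 0.40 (297 against 233 CPM), was just above OA workers with TMM. Drones were below OA workers with DESeq2 size factors (310 against 388 CPM) and library totals (302 against 573 CPM). With library totals the sign of the miR-927b-5p difference turned (-0.08).

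Adult queens were set against adult workers. miR-927b-5p, on 3 counts, had 37.8 CPM in QA against 172 CPM in YA and 295 CPM in OA, and the log2 ratio of counts was -2.18 to YA (counting interval -4.46 to -0.63) and -2.96 to OA (-5.24 to -1.42). The QA level was at the detection floor of 3 counts. At that floor miR-927b-5p met the rule at -2.54 and was the lowest of 86 entries. Of these, 32.6% met the rule, 18.6% as higher and 14% as lower. The strands of miR-927a did not meet it (-0.21 and 0.13). Without YA workers miR-927a-5p met it, at 1.17 higher in queens. The QA column was the shallowest of all, and the part of that shallow depth in these values was not tested.

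Queen larvae carried 311 CPM of miR-927a-5p against 78.8 to 154 CPM in the plain larvae, a log2 difference of 1.56 that met the rule. Of 81 entries 42% met it, and 9.88% were higher; the median was -0.61. miR-927a-3p (31.8 CPM) and miR-927b-5p (15.2 CPM) stayed under 50 CPM. No larval number is given for QL, so the effects of caste and of larval age on this value cannot be told apart.

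Queen pupae were compared with plain pupae of the same eye colour. miR-927a-5p was higher in queens in 3 of 3 pairs, at 234 against 124 CPM (QW and W), 250 against 219 CPM (QR and R) and 732 against 322 CPM (QDR and DR). The counting interval of the R pair (-0.05 to 0.42 in log2) held 0. miR-927a-3p was lower in queens in 3 of 3 pairs. QW had 47.9 CPM against 72.3 CPM in W, QR 65.5 CPM against 128 CPM in R, and QDR 196 CPM against 285 CPM in DR, and all 3 intervals lay under 0. miR-927b-5p was lower in QW (21.0 against 54.8 CPM) and QR (19.3 against 73.8 CPM) and level in QDR (79.5 against 75.3 CPM). None of the 3 met the rule, which 2.47% of 81 entries did. The mean log2 differences were 0.76 for miR-927a-5p and -0.69 for miR-927a-3p, both under 2-fold with ranges that overlapped, and -1.05 for miR-927b-5p, whose ranges overlapped. Without the QDR column alone, miR-927a-3p (-1.29) and miR-927b-5p (-1.69) met the rule, and without DR alone so did miR-927a-5p (1.08), but each omission leaves 1 eye colour unmatched. With QDR and DR both left out, miR-927b-5p met it at -1.61, while miR-927a-3p (-0.77) and miR-927a-5p (0.55) did not. The QW and QR columns rest on 13 to 168 counts a member.

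The strand share of miR-927a, the 3p count over the sum of 3p and 5p counts in the same column, needs no scaling between columns. The 5p strand was the more abundant in 16 of 18 stage columns. The 3p share was 26.1% in egg (95% Clopper-Pearson interval 19.4% to 33.9%). In L1 to L5 it was 14.7%, 17.9%, 20.4%, 17.3% and 18.8%, and in W, R, DR and DRB 36.8%, 36.8%, 47.0% and 25.0%. The lowest pupal share, in DRB (24.4% to 25.6%), still lay above the highest larval one, in L3, whose interval reached 25.7%.

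Among adults the balance turned over. The 3p share was 35.1% in YA workers (34.0% to 36.2%) but 58.3% in OA workers (56.5% to 60.0%) and 66.5% in adult drones (65.6% to 67.4%), the only columns whose interval lay above 50%. In queens it was 9.27% in QL, 17.0% in QW, 20.8% in QR and 21.2% in QDR (20.4% to 21.9%), against 36.8%, 36.8% and 47.0% in the W, R and DR pupae of the same eye colour. Adult queens had 40.6% on 32 counts, and that interval (23.7% to 59.4%) held 50%. Queen pupae thus had the lower 3p share at each of the 3 eye colours, and in each pair the intervals did not overlap.

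**Figure D2:**
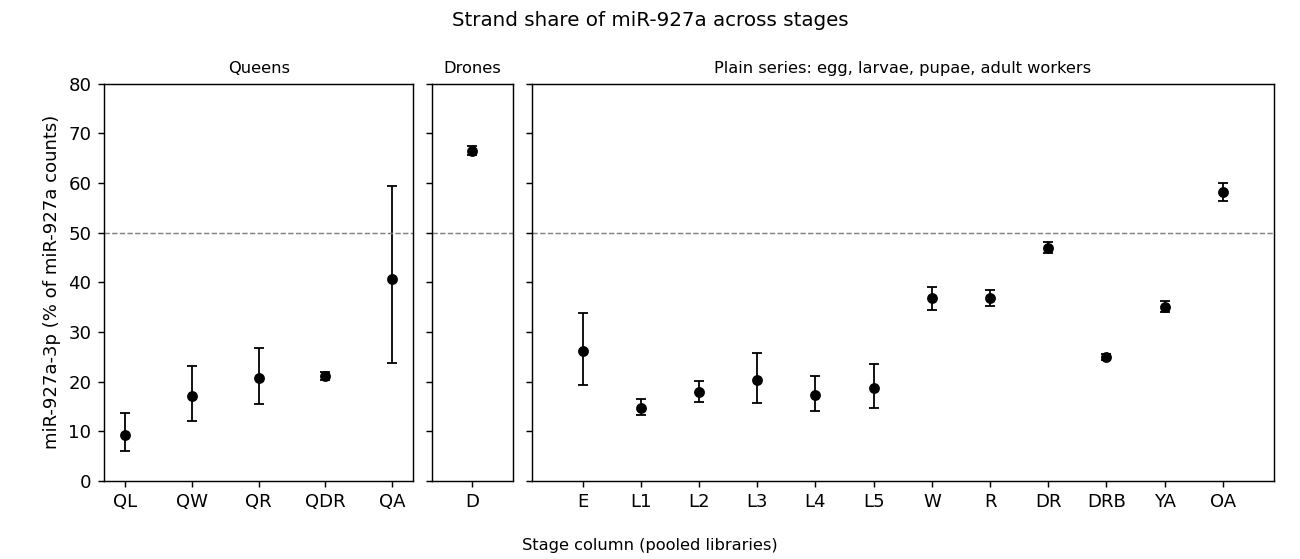
Share of miR-927a-3p among miR-927a counts (percent) in each stage column, with 95% Clopper-Pearson intervals; the dashed line marks 50%. The L1 to L5 larvae and the queen pupae sit between 14.7% and 21.2%, QL is lower at 9.27%, and the OA worker and drone columns, at 58.3% and 66.5%, are above the line.

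Of the other hairpins with both strands listed, 7 had at least 100 counts in each stage column other than QA. Their 3p share moved over those 17 columns by a median of 13.0 percentage points, against 57.2 points for miR-927a. Only miR-14, whose miRNA acts in fat metabolism and cell survival in flies, moved further (64.9 points, 31.5% to 96.3%), and it was also the only other hairpin to cross 50%. The low end for miR-927a, 9.27% in QL, rests on 23 of 248 counts. Strand balance over these columns helped to choose the family, so nothing is read from its wide range.

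The share of miR-927b-5p among the 2 5p entries also needs no scaling. It was 8.87% in egg, 10.2%, 13.1%, 16.9%, 22.4% and 20.5% in L1 to L5, and 30.6%, 25.2%, 19.0% and 11.9% in W, R, DR and DRB. YA workers had 27.6% (26.5% to 28.7%), OA workers 73.5% (72.3% to 74.8%) and adult drones 60.1% (59.1% to 61.2%). OA workers and drones were again the only columns above 50%. Queen columns had 4.66% in QL, 8.24% in QW, 7.18% in QR and 9.80% in QDR. QA had 13.6% on 22 counts, and its interval (2.91% to 34.9%) held the YA share.

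In organs, miR-927b-5p was a brain entry and miR-927a-5p was high in brain and highest in queen ovary. miR-927b-5p stood at 2142 CPM in drone brain (2094 to 2192) and 3025 CPM in worker brain (2904 to 3151). Drone testis (544 CPM), queen ovary (410 CPM) and drone mucus gland (548 CPM) followed, and the rest had 63.7 CPM (worker venom gland) or less, down to 9.45 and 7.12 CPM in drone and worker ventriculus on 13 and 14 counts. Brain against the other 9 columns gave a log2 difference of 5.30, which met the rule. Of 104 entries 21.2% met it, 16.3% as higher and 4.81% as lower, and miR-927b-5p was the eighth from the top.

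miR-927a-5p had 4563 CPM in drone brain (4492 to 4635) and 3796 CPM in worker brain (3659 to 3936), but 19504 CPM in queen ovary (19343 to 19666). The other 8 columns had 486 CPM in drone mucus gland, 398 in worker ovary, 386 and 290 in drone and worker ventriculus, 353 and 264 in drone and worker rectum, 303 in worker venom gland and 114 in drone testis. Intervals of neighbours in this order overlapped from worker ovary down to worker rectum. Its brain columns therefore overlapped the rest, and the difference of 3.11 did not meet the rule. Without queen ovary it did, at 3.78. In queen ovary miR-927a-5p took 1.47% of miRNA counts and ranked ninth of 150 entries with counts, against 0.311% in drone brain and 0.302% in worker brain.

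**Figure D3:**
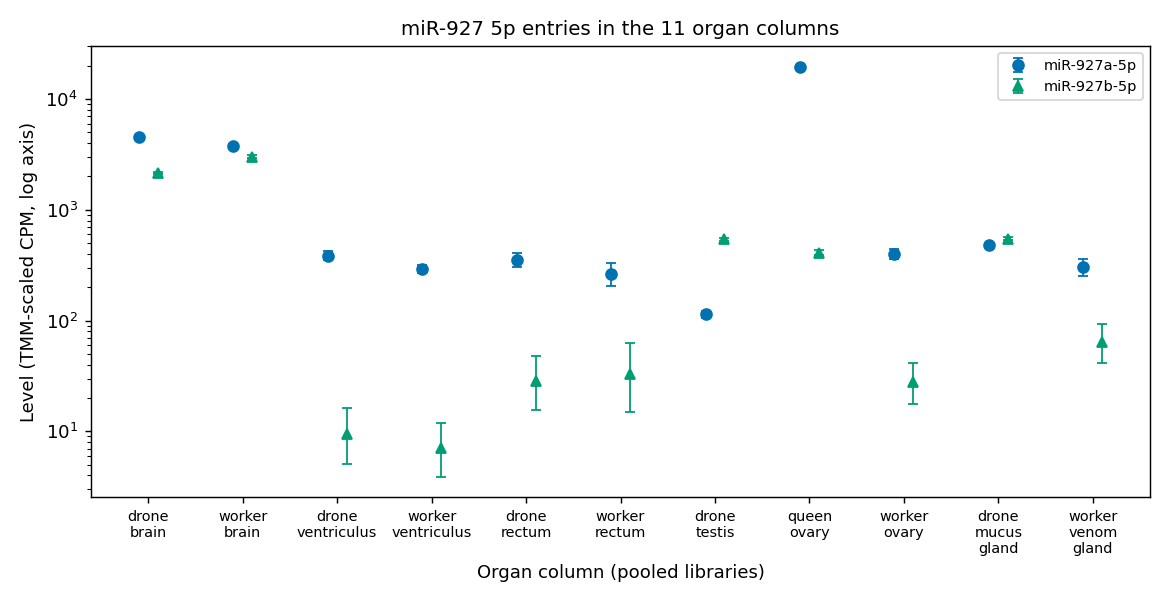
Levels of miR-927a-5p and miR-927b-5p (TMM-scaled CPM, log axis) in the organ columns, with 95% counting intervals. Both entries are between 2142 and 4563 CPM in the 2 brain columns, and the queen ovary column stands alone for miR-927a-5p at 19504 CPM, with 410 CPM of miR-927b-5p.

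Against gut (ventriculus and rectum of drones and workers), brain was higher by 3.70 for miR-927a-5p (4179 against 323 CPM) and by 7.22 for miR-927b-5p (2584 against 19.5 CPM), and both met the rule. Of 91 entries 44% met it, and 31.9% were higher. The brain columns also held the highest summed level of the 13 neural entries, 205925 CPM in drones and 166688 CPM in workers. The 4 gut columns had 67584 to 137106 CPM, with 0 counts of miR-124-5p in all, and drone testis 140792 CPM. miR-276-3p, the largest part of both brain sums, had 81787 CPM in worker venom gland. Of the 11 neural entries at 50 CPM, 7 met the rule as higher in brain and 2 as lower, against 31.9% and 12.1% of all entries. Lower in brain were miR-9a-5p (921 and 1204 CPM in workers and drones, 4820 to 16149 CPM in gut) and miR-190-5p (329 and 216 CPM, against 1333 to 1510 CPM). Between ventriculus and rectum miR-927a-5p differed by 0.13 (338 against 309 CPM), with groups that overlapped and a sign that turned with DESeq2 size factors (-0.11) and library totals (-0.51). miR-927b-5p was lower in ventriculus, 7.12 and 9.45 CPM against 28.6 and 33.0 CPM in rectum. It did not overlap but was under 50 CPM. Of 79 entries 55.7% met the rule there, 38% as higher and 17.7% as lower.

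Drone organs were set against the same organs of workers. With TMM, miR-927a-5p was higher in drones in 3 of 3 pairs. The log2 ratios were 0.27 in brain (counting interval 0.21 to 0.32), 0.41 in ventriculus (0.24 to 0.58) and 0.42 in rectum (0.02 to 0.84). With library totals drone rectum was below worker rectum (379 against 390 CPM). Drone and worker brain were nearly level with DESeq2 size factors (4381 against 4366 CPM). miR-927b-5p was lower in drone brain, at -0.50 (-0.57 to -0.43), and in ventriculus and rectum its intervals held 0. Neither met the rule, which 1.14% of 88 entries did. Without worker brain, which leaves drone brain unmatched, miR-927a-5p met the rule at 1.62. The mean differences were 0.37 and -0.11, and with every pair required to go 1 way in place of no overlap, a rule added once the values were known, neither reached 2-fold.

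The gonads differed most in miR-927a-5p. Queen ovary had 19504 CPM against 398 CPM in worker ovary, a log2 difference of 5.61 (ratio of counts 5.46 to 5.78), and miR-927b-5p had 410 against 27.7 CPM, a difference of 3.84. Both met the 2-fold rule. Of the 94 entries 73.4% met it, 45.7% as higher and 27.7% as lower in queen ovary. The median over these entries was 0.62, so the differences relative to it were 4.99 and 3.22. With library totals the 2 values were 4.57 and 2.82.

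Markers of other tissues were compared in the same columns. Of the 13 neural entries, 13 had counts in queen ovary and 11 in worker ovary, with summed levels of 65375 and 46021 CPM. Of the 10 at 50 CPM, 4 met the rule as higher in queen ovary and 1 as lower, against 45.7% and 27.7% of all entries. Their median of 0.69 stood beside 0.62 for all entries, so nothing particular to the neural entries is read from that count. The lower one was miR-9a-5p, with 3620 CPM in queen ovary and 9540 CPM in worker ovary, against 1204 and 921 CPM in drone and worker brain. miR-276-3p had 18499 against 25300 CPM and did not meet the rule. miR-1000-5p, from a miRNA of the insect brain, had 2346 counts (818 CPM) in queen ovary, 19.3 and 31.3 CPM in drone and worker brain, and 0 counts in worker ovary. miR-124-5p had 2 counts in queen ovary and 0 in worker ovary, against 824 and 84 counts in drone and worker brain. miR-2796-3p, another brain miRNA, had 836 CPM in queen ovary and 152 CPM in worker ovary, against 39507 and 47577 CPM in drone and worker brain. The ovarian miR-989-3p had 8695 CPM in queen ovary and 20865 CPM in worker ovary. The part of other cell types in the miR-927 levels of the ovaries was not tested.

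Drone testis had 114 CPM of miR-927a-5p against 19504 and 398 CPM in queen and worker ovary, and 544 CPM of miR-927b-5p against 410 and 27.7 CPM. The log2 differences were -4.60 and 2.33, and both met the rule, which 50% of 98 entries did (25.5% higher, 24.5% lower). These sizes turn on which ovary is used. miR-927a-5p was at -1.79 without queen ovary and -7.40 without worker ovary. Without worker ovary miR-927b-5p was at 0.41 and did not meet the rule.

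The share of miR-927b-5p among 5p counts separated organs widely. Drone testis had 82.7% (81.6% to 83.7%) and drone mucus gland 53.0% (52.0% to 54.0%). These were the only organ columns above 50%. Drone brain had 31.9% (31.3% to 32.6%) and worker brain 44.4% (43.0% to 45.7%), and the intervals did not overlap. Worker venom gland had 17.4%, drone and worker rectum 7.49% and 11.1%, worker ovary 6.52%, each ventriculus 2.39%, and queen ovary 2.06% (1.94% to 2.18%).

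**Figure D4:**
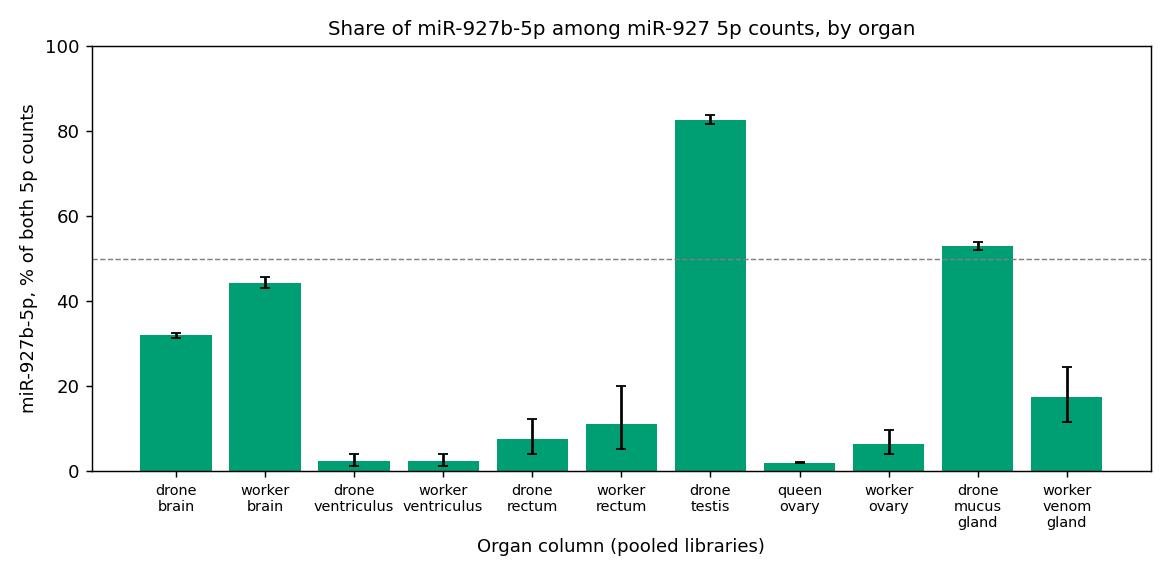
Share of miR-927b-5p among the counts of both miR-927 5p entries (percent) by organ column, with 95% Clopper-Pearson intervals; the dashed line marks 50%. The bars run from 2.06% in queen ovary to 82.7% in drone testis.

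Of the other entries with a mean of at least 50 CPM, the 3 most like each member were found by Pearson r of log2(CPM + 1). These are descriptions over columns that share their scaling, and queens, drones and successive stages are not independent. Over 18 stage columns and 85 entries, miR-927a-3p was most like the muscle miRNA miR-1-3p (r = 0.90, Spearman rho = 0.85), then the brain miRNAs miR-2796-3p (0.86, rho 0.77) and miR-210-3p (0.86, rho 0.84). miR-927b-5p was most like miR-2796-3p (r = 0.93, rho 0.93), followed by the muscle miRNA miR-133-3p (0.86) and miR-3477-5p (0.86). Among organs, miR-133-3p was highest in testis and next highest in drone and worker brain. miR-927a-5p had weaker matches in miR-2788-5p (0.76), let-7-5p, which times the metamorphosis of flies (0.67), and its own 3p strand (0.66, rho 0.68). The 2 5p entries were little alike over stages (r = 0.31, rho 0.31), and miR-927a-3p was closer to miR-927b-5p (0.83, rho 0.82) than to its partner strand.

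Over 11 organ columns and 97 entries, miR-927b-5p was most like miR-929-3p, another brain miRNA (r = 0.87, rho 0.86), then miR-252a-5p (0.84) and miR-3785-3p (0.81). The entries most like miR-927a-5p were miR-1000-5p (0.90, rho 0.53), miR-125-5p of the let-7 complex (0.83, rho 0.58) and miR-9889 (0.81, rho 0.60). Each of these 3 was highest in queen ovary, and their rank correlations were lower than r. miR-9889 had 8691 CPM there and a median of 3.66 CPM over organs.

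Among the neural entries, 5 of the 8 with at least 50 CPM were higher and 0 lower in pupae than in larvae, with a median log2 difference of 1.22 against -0.33 for all entries, of which 11.9% were higher and 21.4% lower. miR-210-3p had 3.38 (59.9 against 5.65 CPM) and miR-2796-3p 2.28 (2211 against 419 CPM). In adult workers against pupae 1 of 8 was higher and 3 lower (median -0.58 against -0.44 for all entries, 12.3% higher and 25.9% lower), the lowest being miR-315-5p at -3.02. In brain against the other organs 5 of 12 were higher and 1 lower (median 2.85 against -0.34 for all entries, 16.3% higher and 4.81% lower), led by miR-2796-3p at 7.48 (43542 against 322 CPM). The same shares over all entries are the background for the juvenile hormone and ecdysone list. Of its entries, 1 of 17 was higher and 3 lower in pupae than in larvae (median -0.76), the higher one being let-7-5p at 2.57, 1 was higher and 6 lower in adult workers than in pupae (median -1.47), and 1 was higher in brain than in the other organs (median -0.26). These lists are set beside miR-927 as context, and nothing particular to them is drawn from the counts.

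**Figure D5:**
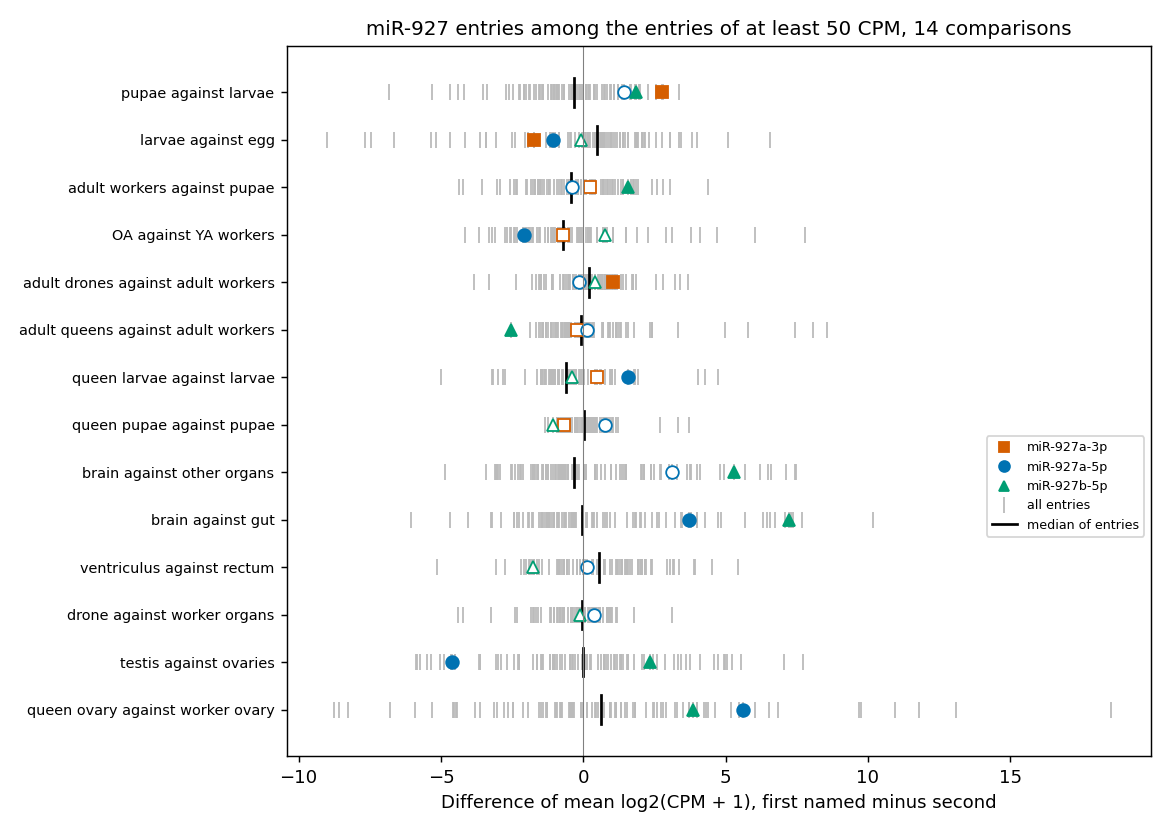
Log2 differences of the miR-927 entries (coloured symbols, filled where the rule was met) among all entries of at least 50 CPM (grey ticks, black bar at their median) in the 14 comparisons, first-named side minus second. miR-927b-5p lies far to the right in brain against gut (7.22), and miR-927a-5p is far to the left in testis against ovaries (-4.60) and to the right in queen ovary against worker ovary (5.61).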

How the data were processed

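The deposited sheets hold whole-number read counts per miRNA entry, which the authors had pooled to 1 column per group. Whether a column is the sum or the mean of its libraries is not stated; the counting intervals take each value as the number of reads seen. Per the submitters' processing notes, bcl2fastq and kallisto were used, with no version given; mapping settings and a genome build are not given in the sources used here, nor is how reads matching several entries were assigned. Per the labels' protocols, 1 small RNA kit was used for all libraries. A deposited table of sequencing statistics was not used for values, because its library names match no label; its headings give the eye colours of pupae and the nurse and forager names.

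Counts were scaled to CPM with TMM (edgeR 4.0.16 in R 4.3.3), each sheet on its own, and compared as mean log2(CPM + 1). Sheets were not compared with each other. Planned tests were none: columns are pooled, and members and lists were chosen with earlier results of these data known. The rule for named miRNAs was the 3 members, the 3 entries most like each by Pearson r with a mean of at least 50 CPM, and up to 3 counted members of the neural and the juvenile hormone and ecdysone lists with the largest differences. miR-124-3p, planned as a nervous system marker, was not used here, and miR-124-5p, named after its values were seen, stands in for it. Counting intervals are exact Poisson, binomial for ratios, and Clopper-Pearson for shares, at 95%; reads from amplified libraries are not independent molecules. The comparison rule was run on simulated counts with counting error only. Such counts hold no variation between bees or libraries, so they cannot show how the rule behaves on real pooled columns. Alternatives were DESeq2 1.42.0 size factors, library totals, TMM from entries with at least 10 counts in 50% or more of the columns, a pseudocount of 5 CPM, and leaving out each column.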

Additional observations from a re-analysis of the deposited data

How the results depend on the processing

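Member differences that met the rule kept their sign under each scaling and pseudocount run, and, where a side had more than 1 column, without any 1 column; OA against YA workers and queen ovary against worker ovary have 1 column a side, so none could be left out. With library totals miR-927a-5p in pupae against larvae met the rule at 1.89, and with TMM from entries of at least 10 counts at 1.69. In larvae against egg miR-927a-5p missed it with the latter scaling (-0.94). In OA against YA workers miR-927b-5p met it with DESeq2 size factors (1.02), library totals (1.67) and the filtered TMM (1.23). In adult drones against adult workers miR-927a-3p missed it with the same settings, at 0.83, 0.56 and 0.73. A pseudocount of 5 CPM changed no call.

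Leaving out 1 column changed calls within these ranges. For miR-927a-5p they were 0.97 to 1.83 in pupae against larvae, -1.21 to -0.97 in larvae against egg, -1.42 to 0.65 in adult workers against pupae, -1.18 to 0.89 in adult drones against adult workers, -0.91 to 1.17 in adult queens against adult workers, 0.23 to 1.08 in queen pupae against pupae, 2.85 to 3.78 in brain against other organs and -0.84 to 1.62 in drone against worker organs. For miR-927a-3p they were 0.69 to 1.40 in drones against workers and -1.29 to -0.17 in queen pupae against pupae. For miR-927b-5p they were -1.69 to -0.70 in queen pupae against pupae and 0.41 to 4.25 in testis against ovaries. Without the QDR and DR pair, a setting added once the values were known, miR-927b-5p met the rule in queen pupae at -1.61, while miR-927a-3p (-0.77) and miR-927a-5p (0.55) did not; without the QR and R pair miR-927b-5p was at -0.63. The cause of these changes was not tested.

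Library totals moved the median over entries by -1.18 (larvae against egg) to 0.90 (OA against YA workers). Over all entries, the count that met the rule in queen pupae against pupae was 2, against 4 to 5 with other scalings and up to 17 without QDR. In drone against worker organs it was 1, against 2 with library totals and up to 10 without drone ventriculus. Without YA workers it was 55 in place of 31 in adult workers against pupae and 50 in place of 28 in adult queens against adult workers. Without OA workers it was 42 in place of 24 in adult drones against adult workers. In adult workers, a class of 2 columns, the mean 3p share of 46.7% was 35.1% without OA and 58.3% without YA, and the mean miR-927b-5p share of 50.6% was 27.6% without OA and 73.5% without YA. Of the 3 most alike entries, 2 or 3 were shared with library totals and 0 to 3 with Spearman rho. No paired analysis was possible because the pooled columns carry no replicate number; columns matched by eye colour or organ were set side by side as descriptions. Depth limits the QA, QL, QW, QR and egg columns most.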
